A study of Drosophila melanogaster with 4 samples.

Results

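The interior of chromosome arm 2L, from base 1000001 to base 13600000 on FlyBase release 5, is a 12.6 Mb stretch of gene-bearing chromosome arm. Its H3K9me1 clusters were taken by position alone: every enriched cluster whose midpoint lay in the stretch was a member. ChIP replicate 1 held 1666 members among 15404 clusters in all, and ChIP replicate 2 held 1555 of 14643. The list for the whole series held 2374 of 21525. Wild-type flies of the Oregon-R strain of Drosophila melanogaster, labelled as mixed adults and raised in population cages, gave the head nuclei from which chromatin was made. There were 2 ChIP libraries, made with an H3K9me1 antibody marked as new lot 2, and 2 input libraries. Per the labels, input 1 was used for the calls of ChIP replicate 1 and input 2 for those of ChIP replicate 2. All 4 libraries shared strain, genotype and stage, and sexes were not given in the labels. The labels do not say whether the 2 replicates stem from different cages, so their spread may be technical.

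H3K9me1 is the monomethylated form of lysine 9 on the tail of histone H3. In Drosophila the enzymes Su(var)3-9, eggless and G9a methylate this residue, and the di- and trimethylated forms are bound by the heterochromatin protein HP1. The monomethylated form can be an intermediate on the way to those forms, or a product of its own, and it is also found outside heterochromatin. A head holds neurons, glia, fat body, muscle and eye tissue. A mark present in some of these cell types and a weaker mark in all of them cannot be told apart in such chromatin. The lists give no read counts, so depth is unknown, and a base outside a cluster is a base without a call. Genes, exons and introns under the clusters were not analysed here, since the annotation at hand follows a later assembly than the lists.

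H3K9me1 clusters were spread along the whole interior of 2L as many short blocks with short gaps between them. They covered 36.1% of the stretch in replicate 1 and 31.6% in replicate 2, a mean of 33.9 ± 3.21% (SD, n = 2). The number of clusters per Mb was 132.2 and 123.4, a mean of 127.8 ± 6.23 (SD, n = 2). In the series list, which has no replicates, the clusters covered 55.1%. Replicate 1 was thus the denser list in number and in bases.

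Most clusters were narrow. Replicate 1 clusters had a median width of 2092 bp and those of replicate 2 one of 1995 bp, a mean of 2043.5 ± 68.6 bp (SD, n = 2). Clusters under 2 kb made up 45.1% and 50.4% of the members. The narrowest was 1302 bp in each replicate, so shorter blocks were not represented in these lists, and the 90th percentile of width was 4697.5 bp and 4322 bp. A small share of wide clusters held much of the covered sequence. Those of at least 5 kb were 8.46% of the clusters and 23.7% of the cluster bases in replicate 1, and 6.69% of the clusters and 19.3% of the bases in replicate 2. Clusters of at least 10 kb numbered 18 and 12. The authors' score, a value per cluster on a scale that the files and labels used here do not state, was higher in wider clusters, with a Spearman's rho of 0.687 and 0.668 across clusters. Clusters of 1 library share its depth and its calling, so this is a description with no p.

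The spacing was uneven. Neighbouring clusters had a median gap of 2480 bp in replicate 1 and 2822 bp in replicate 2, a mean of 2651 ± 241.8 bp (SD, n = 2), while the mean gap was 4824 bp and 5536 bp. Gaps under 1 kb were 28.4% and 25.8% of all gaps. At the other end, gaps of at least 10 kb were only 12.9% and 16.1% of the gaps and held 49.7% and 54.7% of the bases between clusters. The SD of the gaps was 1.41 and 1.40 times their mean. From midpoint to midpoint, the median spacing was 5411.5 bp and 5534 bp. A cluster's width told little of its neighbour's: rho between the widths of consecutive clusters was 0.0857 and 0.0832, and between consecutive gaps 0.118 and 0.140. These are descriptions across clusters that share a library, with no p.

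**Figure D1:**
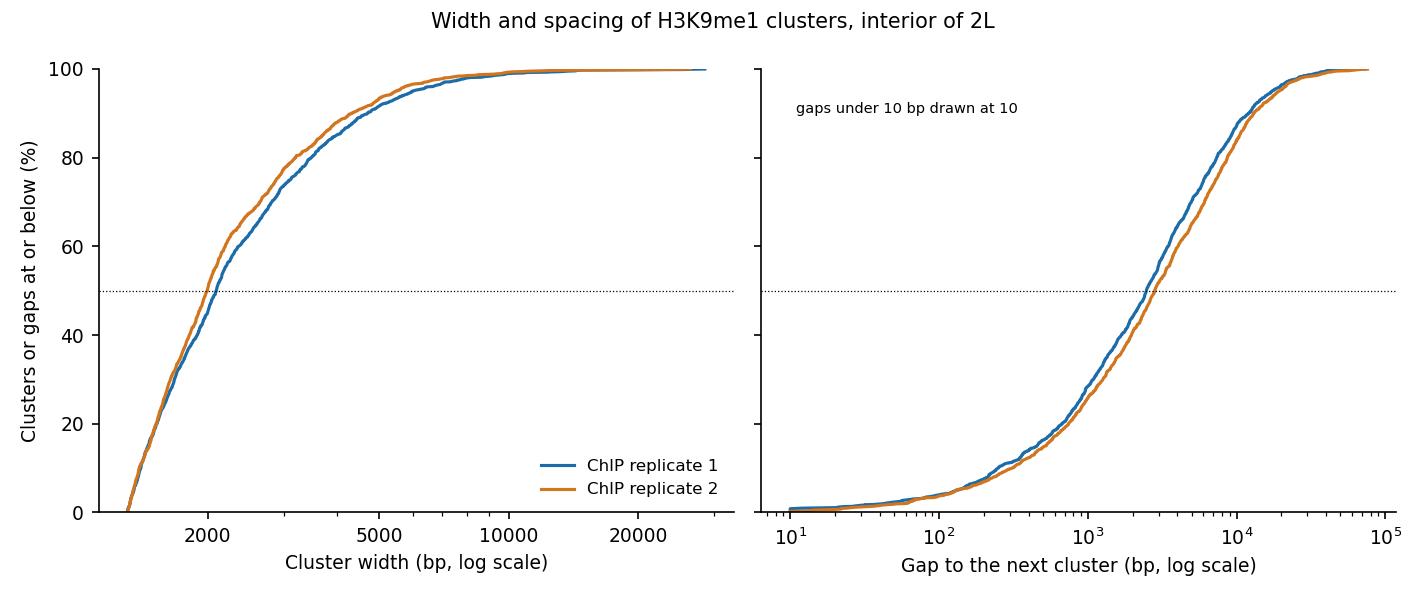
Cumulative share of clusters (left, by width in bp on a log axis) and of gaps between neighbouring clusters (right, by length in bp on a log axis) in the interior of 2L, with 1 line for each ChIP replicate and a dotted line at 50%. The lines cross 50% at widths of 2092 and 1995 bp and at gaps of 2480 and 2822 bp in replicates 1 and 2, and the gaps run over a far wider range than the widths.

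The replicates placed the clusters in largely the same positions. They shared 3.31 Mb out of 5.22 Mb covered in either, a base-level Jaccard index, the share of jointly covered bases among all covered bases, of 0.635. Of the members, 1292 of replicate 1 (77.6%) and 1335 of replicate 2 (85.9%) shared at least 1 bp with a cluster of the other replicate. Over the whole lists the shares were 77.8% and 85.6%, so the interior of 2L stood close to the background. Agreement was nearly complete for wide clusters. Of those of at least 3 kb, 432 of 441 in replicate 1 and 349 of 353 in replicate 2 touched a cluster of the other replicate, although a wide cluster touches another more easily than a narrow one. The share for such clusters over the whole lists is not given here, so these counts cannot be read as particular to the interior of 2L.

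Where 1 cluster met exactly 1 cluster, the edges were close. In these 1047 pairs the starts differed by a median of 128 bp and the ends by 135 bp, and 84.5% of midpoints lay within 500 bp of each other. The replicate 1 cluster was the wider one in 654 pairs (62.5%), by a median of 98 bp over all pairs. Other clusters were cut differently: 117 clusters of replicate 1 lay over at least 2 of replicate 2, and 82 of replicate 2 over at least 2 of replicate 1. Scores across the 1047 pairs had a Pearson's r of 0.733 and a Spearman's rho of 0.679.

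The clusters found in a single replicate were narrower and lower-scoring in the median. A narrow cluster touches another less easily than a wide one, so the difference in width is partly built in. Score was higher in wider clusters, so the difference in score is not separate from that in width. The 374 of replicate 1 without a counterpart had a median width of 1576 bp, against 2320.5 bp for those with one, and a median score of 0.528 against 0.612. The 220 of replicate 2 had a median width of 1485.5 bp against 2110 bp, and a median score of 0.505 against 0.577. They held 14.2% of the cluster bases in replicate 1 and 8.88% in replicate 2. Nearly all of them, 371 of 374 and 218 of 220, touched a cluster of the series list. That list took in almost all cluster sequence from either replicate, 99.4% for replicate 1 and 99.6% for replicate 2. Such contact was therefore nearly fixed beforehand and is no separate evidence for clusters found once. The widest cluster without a counterpart reached 4269 bp in replicate 1, at 2L 4365423 to 4369691, and 4952 bp in replicate 2, at 2L 5384345 to 5389296. Next widest were 4751404 to 4755668 (4265 bp) in replicate 1 and 12211305 to 12215048 (3744 bp) in replicate 2.

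The series list added calls between and around these clusters. Of its 2374 clusters, 1120 met a cluster of each replicate and had a median width of 3376 bp. Another 519 met a cluster of a single replicate, with a median width of 1843 bp, and 735 met none, with a median width of 1280 bp. Of the series bases, 47.8% lay under clusters of both replicates and 25.4% under clusters of neither. The series list also joined neighbours: 188 of its clusters held at least 2 clusters of replicate 1, and 191 at least 2 of replicate 2.

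Cut into 126 windows of 100 kb, the interior of 2L showed a jagged profile that the replicates shared in detail. Window coverage ran from 3.34% to 77.0% in replicate 1, with a median of 34.7%, and from 4.29% to 78.7% in replicate 2, with a median of 30.1%. The SD over windows was 14.7 and 13.8 percentage points in replicates 1 and 2. Replicate 1 minus replicate 2 had a median of 4.47 percentage points and an SD of 4.63 over windows, and ran from -8.23 to 15.3. Across windows the 2 profiles had a Pearson's r of 0.949 and a Spearman's rho of 0.929, a description of windows that are neighbours on 1 chromosome. In 10 kb bins, 1260 in number, r was 0.862. Replicate 1 was higher in 106 of the 126 windows. Between neighbouring windows, coverage stepped the same way in both replicates at 106 of 125 boundaries.

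**Figure D2:**
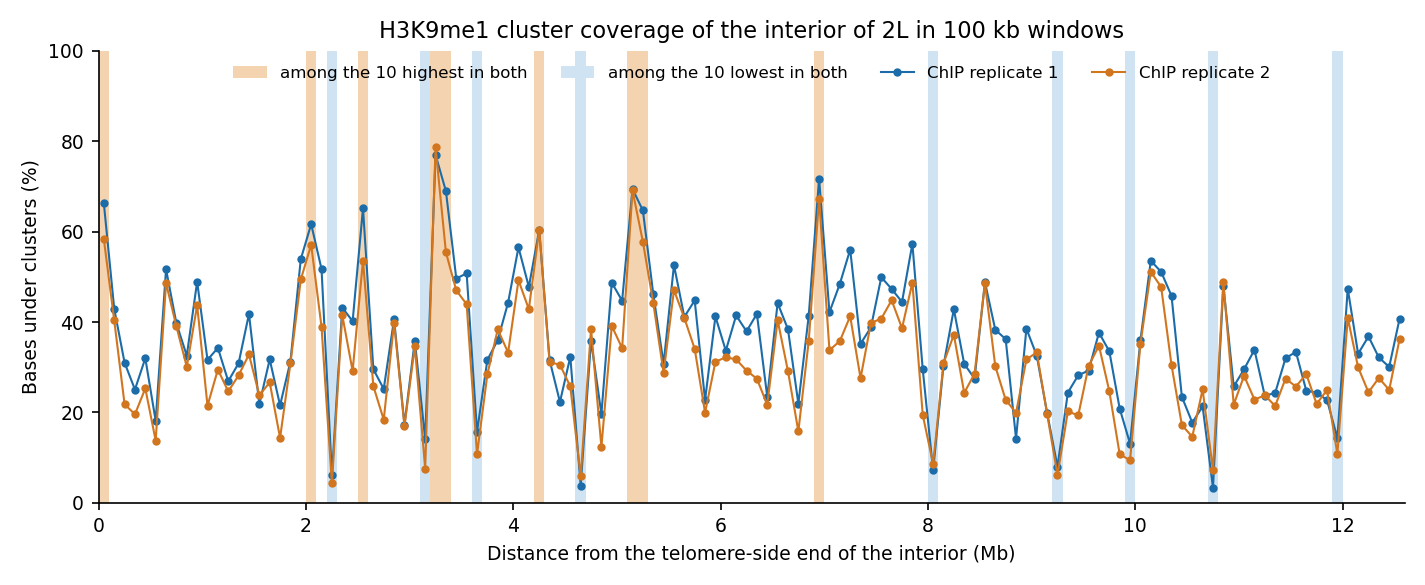
Percent of bases under clusters in 100 kb windows (vertical axis) against distance from the telomere-side end of the interior of 2L in Mb (horizontal axis), for ChIP replicates 1 and 2, with shading for the 9 windows among the 10 highest and the 9 among the 10 lowest of both replicates. The lines rise and fall together, between 3.34% and 77.0% in replicate 1 and between 4.29% and 78.7% in replicate 2.

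**Figure D3:**
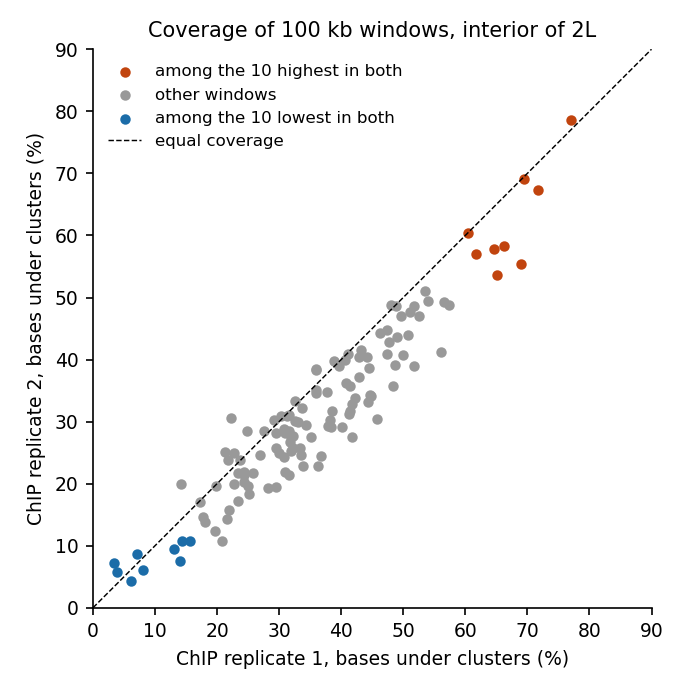
Percent of bases under clusters in each of the 126 windows of 100 kb, replicate 2 (vertical axis) against replicate 1 (horizontal axis), coloured by whether the window was among the 10 highest or 10 lowest of both replicates. Most points lie under the dashed line of equal coverage, since replicate 1 was higher in 106 windows, and Pearson's r across windows was 0.949.

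Of the 10 windows with the highest coverage in each replicate, 9 were the same windows. They were chosen by value, so their coverage is given as a description with no test. The highest was 2L 4200001 to 4300000, covered to 77.0% in replicate 1 and 78.7% in replicate 2, and its neighbour 4300001 to 4400000 was covered to 68.9% and 55.4%. The window 6100001 to 6200000 reached 69.4% and 69.1%, and 6200001 to 6300000 next to it 64.7% and 57.8%. The window 7900001 to 8000000 reached 71.7% and 67.3%. The windows starting at 4200001, 6100001 and 7900001 took the first 3 ranks in each replicate, and 4200001 to 4300000 was first in both.

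The other windows high in both replicates stood alone. They were 1000001 to 1100000 (66.3% and 58.3% in replicates 1 and 2), 3500001 to 3600000 (65.2% and 53.6%), 3000001 to 3100000 (61.6% and 57.1%) and 5200001 to 5300000 (60.4% and 60.4%). All 9 lay in the telomere-side 7 Mb of the stretch. The last window inside the 10 highest had 57.3% and the first outside 56.5% in replicate 1, and 51.1% and 49.4% in replicate 2. The window at 8800001 to 8900000 entered only for replicate 1 and that at 11100001 to 11200000 only for replicate 2, each ranking 14th in the other list.

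The 10 lowest windows also had 9 in common. The emptiest were 2L 5600001 to 5700000, covered to 3.83% in replicate 1 and 5.83% in replicate 2, 3200001 to 3300000 (6.09% and 4.29%) and 11700001 to 11800000 (3.34% and 7.21%). Then came 10200001 to 10300000 (8.02% and 6.15%) and 9000001 to 9100000 (7.17% and 8.61%). These windows held between 2 and 5 clusters in each replicate. The remaining ones were 4100001 to 4200000 (14.1% and 7.58%), 10900001 to 11000000 (13.1% and 9.42%), 12900001 to 13000000 (14.4% and 10.8%) and 4600001 to 4700000 (15.7% and 10.8%). No low window was empty of clusters in either replicate. The last window inside the 10 lowest had 15.7% and the first outside 17.3% in replicate 1, and 10.8% and 12.3% in replicate 2. The window at 9800001 to 9900000 was among the 10 lowest only in replicate 1 (14.2%, against 19.9% in replicate 2), and that at 10800001 to 10900000 only in replicate 2 (20.9% in replicate 1 and 10.7% in replicate 2).

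Read against fixed levels, the interior of 2L had 10 windows of 126 (7.94%) covered to at least 50% in both replicates, where the interiors of the 5 arms together had 11.9% of 965 windows. It had 8 windows (6.35%) covered to at most 15% in both, where the 5 interiors had 6.63%. Taken singly, replicate 1 had 19 windows at or above 50% and replicate 2 had 10, and 9 and 14 windows lay at or below 15%, so these counts depend on the replicate. The share of high windows in both replicates was below the background and the share of low windows close to it, with no test of either difference.

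In the replicate lists, high and low windows differed in the number of clusters more than in their width. The 9 high windows held a mean of 17.1 clusters in each replicate, and the 9 low windows 4.56 in replicate 1 and 4.22 in replicate 2, a ratio of 3.76 and 4.05. Mean cluster width was 4135 bp and 3743 bp in the high windows, and 1985 bp and 1807 bp in the low ones, a ratio of 2.08 and 2.07. Over all 126 windows, coverage went with the number of clusters (Pearson's r of 0.753 and 0.818) and with their mean width (0.713 and 0.702), while number and width went with each other weakly (0.126 and 0.221). On a log scale, number carried 69.0% of the variance of summed cluster width in replicate 1 and 71.1% in replicate 2, and mean width the rest. The series list, which joined neighbours, differed. Its window coverage went with mean width (r of 0.598) more than with number (0.294), and number fell as width rose (-0.380). The larger part of number thus holds for the replicate lists only. Coverage is made of these quantities, so the correlations describe its parts and are not a test.

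The sharpest change between neighbouring windows lay at 4200000. Coverage was 77.0% in the window after it and 14.1% in the window before it in replicate 1, a step of 62.9 percentage points, and 78.7% and 7.58% in replicate 2, a step of 71.1. In replicate 1, 18 clusters lay after the boundary and 6 before it, and in replicate 2 there were 19 and 3. The series list, which joined neighbours, had the opposite order in number, with 6 after and 19 before. Its widest cluster was 42960 bp after the boundary and 3319 bp before it, and its coverage was 96.9% and 37.9%. The dense side opened with a cluster starting at 4198718 in replicate 1 and 4198871 in replicate 2, within 1283 bp of the window boundary, which was set only by counting from the start of the interior. In the 25 kb after the boundary 74.4% and 64.5% of bases were covered, and in the 25 kb before it 18.6% and 4.52%.

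**Figure D4:**
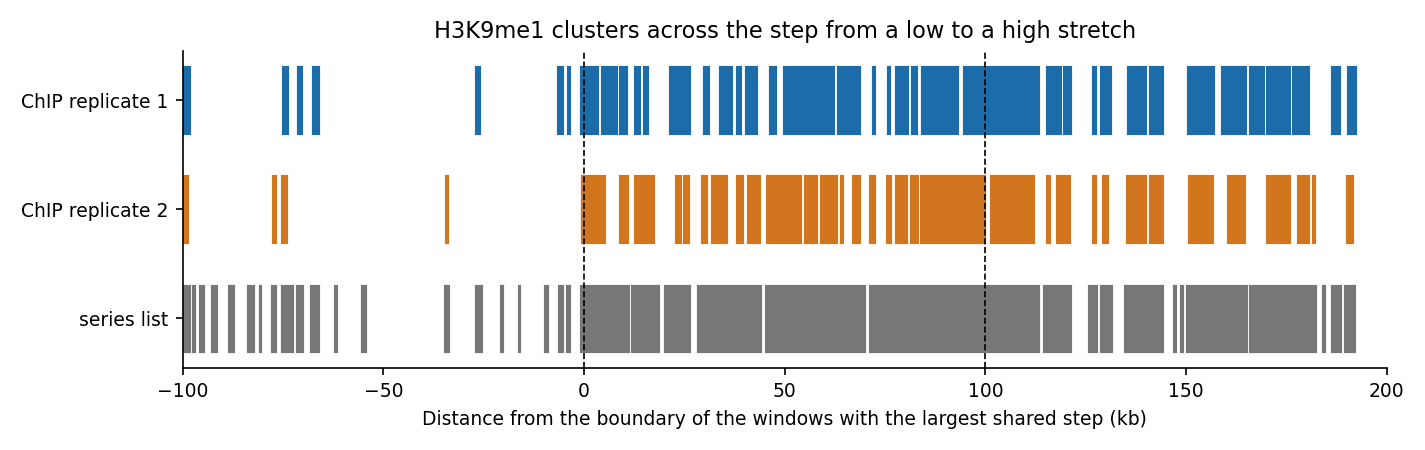
Clusters of ChIP replicate 1, ChIP replicate 2 and the series list (rows, bars to scale) from 100 kb before to 200 kb after the window boundary with the largest shared step in coverage (horizontal axis, distance in kb), with dashed lines at the ends of the densest window. Replicate 1 had 18 clusters between the dashed lines and 6 in the 100 kb before them, and replicate 2 had 19 and 3. The series list had 6 and 19, with wider clusters between the lines.

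Other steps shared by both replicates were smaller. At 11800000, coverage was 48.0% after and 3.34% before the boundary in replicate 1, and 48.8% and 7.21% in replicate 2. The low window 3200001 to 3300000 was bounded on both sides, with 43.2% and 41.5% covered in the window after it and 51.7% and 38.9% in the window before it. The median step between neighbouring windows was 11.4 percentage points in replicate 1 and 11.3 in replicate 2.

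Coverage was alike only over short distances. In 100 kb windows the autocorrelation, the correlation of the profile with itself shifted along the chromosome, was 0.252 in replicate 1 and 0.192 in replicate 2 at a lag of 100 kb. It was 0.105 and 0.0669 at 200 kb and below 0 at 300 kb. It was thus under 1/e (0.368), the level used here for the range, at the first lag in both replicates, so windows of this width could not resolve the range. In 10 kb bins it was 0.408 and 0.399 at 10 kb, 0.298 and 0.263 at 20 kb, and 0.151 and 0.123 at 50 kb. It passed below 1/e at 20 kb, below 0.2 at 40 kb and below 0.1 at 80 kb in each replicate. At 100 kb it was 0.0172 and 0.00982.

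Shifting replicate 1 against replicate 2, which share no library, gave 0.401 at 10 kb, 0.281 at 20 kb and 0.136 at 50 kb. At these lags it lay between the values of the 2 replicates, and at 30 kb it was 0.216, below their 0.228 and 0.222. At 90 kb it was 0.0316, above their 0.0290 and 0.00879. A single cluster can lie in 2 bins. The number of midpoints per 10 kb bin, which counts each cluster once, had an autocorrelation of 0.173 and 0.145 at 10 kb and 0.0525 and 0.0444 at 50 kb. Beyond 200 kb, the autocorrelation in 100 kb windows stayed between -0.148 and 0.185 in either replicate at every lag up to 4000 kb but one. At 1900 kb it was 0.242 and 0.282, above its value at 100 kb in replicate 2, and 0.155 in the series list.

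**Figure D5:**
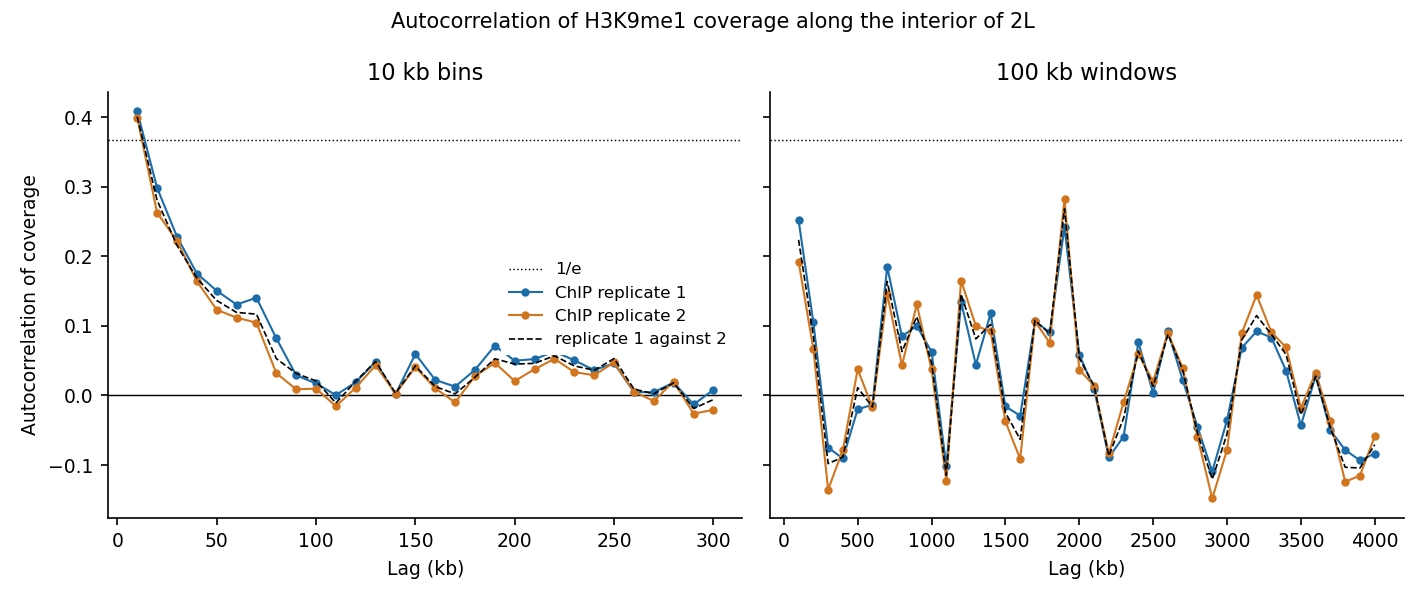
Autocorrelation of coverage (vertical axis) against lag in kb (horizontal axis), in 10 kb bins up to 300 kb (left) and in 100 kb windows up to 4000 kb (right), for each ChIP replicate and, dashed, for replicate 1 against replicate 2. In 10 kb bins it passes below the dotted line at 1/e at 20 kb and below 0.1 at 80 kb, and in 100 kb windows the highest later value is at 1900 kb.

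The 13 windows next to the high ones, leaving out those that were high themselves, had a median coverage of 42.9% in replicate 1 and 35.8% in replicate 2, above the 34.7% and 30.1% of all windows. The 18 next to the low ones had a median of 34.1% and 32.7%, close to that of all windows. No window low in both replicates had another such window as its neighbour, although 10800001 to 10900000, beside the low window at 10900001, was among the 10 lowest of replicate 2. The longest run below the mean of the interior in both replicates went from 11900001 to 13000000, 11 windows in a row at 26.3% and 23.4% on average, and the next longest was 5 windows, at 10100001 to 10600000. No run above the mean was longer than 5 windows, and those at 5900001 to 6400000, 7800001 to 8300000 and 8400001 to 8900000 had that length.

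Taken as a whole, the part past 9000001 had lower coverage than the part before it, with no steady trend along the stretch. Single blocks of 1 Mb overlapped between these parts. The block 2000001 to 3000000 had a mean of 30.4%, below the 31.3% of 11000001 to 12000000. Blocks of 1 Mb ranged from 22.8 ± 2.75% at 10000001 to 11000000 to 43.3 ± 3.60% at 6000001 to 7000000 (SD, n = 2). The first 2 blocks had 36.4 ± 3.37% and 30.4 ± 3.12%, and the last, from 13000001 to 13600000, had 33.7 ± 4.23% (SD, n = 2). The 8 Mb from 1000001 to 9000000 were covered to 37.2 ± 3.63% and the 4.6 Mb from 9000001 to 13600000 to 28.1 ± 2.48% (SD, n = 2), a division made after the profile was seen and therefore not tested. The ratio was 1.33 in replicate 1 and 1.32 in replicate 2. Here mean width differed by a ratio of 1.22 and 1.20, and the number of clusters per Mb by 1.10 and 1.09. In the replicate lists, width had the larger part in this broad difference, whereas number had it between the high and low windows.

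The widest clusters of the series list that touched clusters in both replicates lay in 3 of 5 cases over a high window, at 7893566, 4270643 and 6181517. Replicate clusters under such a wide cluster themselves raise the coverage of the window, so this placement is partly built in. The widest, 2L 7893566 to 7939714, spanned 46.1 kb, of which 6 clusters of replicate 1 took up 95.8% and 6 of replicate 2 took up 90.8%. It was followed by 4270643 to 4313602 (43.0 kb), 4479106 to 4514337 (35.2 kb), 11169500 to 11197734 (28.2 kb) and 6181517 to 6208698 (27.2 kb). Each of these was covered to at least 87.6% in replicate 1 and 88.6% in replicate 2. The cluster at 6181517 was a single cluster in each replicate, whereas that at 4270643 was made of 6 in each.

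Among the series clusters that touched both replicates, those with the highest scores were mostly shorter. At 2L 6481302 to 6487142, 5841 bp long, the series score was 1.18 and the replicate scores were 1.31 and 1.13, the highest in either replicate within the interior. Then came 1051793 to 1077620 (25.8 kb, series score 1.06), which lies in the first window of the stretch, and 10368193 to 10373443 (5251 bp, 1.01). After these came 5012083 to 5019630 (7548 bp, 0.998) and 1666668 to 1679269 (12.6 kb, 0.991). Replicates 1 and 2 each covered at least 91.2% of every one of them. None of the 5 was also among the 5 widest.

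Of the 5 longest stretches without a cluster in either replicate, 4 lay in or across the edge of a low window. The exception is the one at 11525839. A long stretch without clusters itself lowers the coverage of its window, so this placement is partly built in. The longest was 2L 10224449 to 10282955 (58.5 kb), followed by 5610329 to 5668632 (58.3 kb), 11525839 to 11583246 (57.4 kb), 3193932 to 3241427 (47.5 kb) and 10928404 to 10968303 (39.9 kb). Series clusters covered from 4.55% to 9.69% of each, with 3 or 4 clusters. In all, 42 shared stretches of at least 20 kb added up to 1220.5 kb, and 39 of them were of 20 to 50 kb.

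Beside the interiors of the other arms, which were taken without 1 Mb at the telomere side and 2 Mb at the centromere side of the assembled arm, the interior of 2L was of middle coverage. It was covered to 33.9 ± 3.21%, against 40.4 ± 2.66% on 2R, 36.2 ± 3.31% on 3L, 33.3 ± 2.83% on 3R and 30.5 ± 2.06% on X (SD, n = 2). Within a replicate the differences were steadier than these SDs: 2L minus 2R was -6.18 and -6.95 percentage points in replicates 1 and 2, and 2L minus 3L -2.39 and -2.25. The difference from 3R was 0.823 and 0.291, and that from X 4.13 and 2.50. The 2L stretch ends at 13600000 and holds 54.8% of its assembled arm, whereas the others hold 85.8% to 89.2% of theirs, so they also take in sequence nearer the centromere. Each arm is a single chromosome arm, so no test of these differences was made. Median widths were close, at 2043.5 ± 68.6 bp against 1996.5 to 2103.25 bp for the means of the other arms.

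Neighbouring windows were less alike in the interior of 2L than in those of 3L, 3R and X. The autocorrelation at 100 kb was 0.222 ± 0.0422 on 2L, against 0.331 ± 0.0166 on 3L, 0.383 ± 0.0180 on 3R and 0.379 ± 0.0111 on X, and 0.211 ± 0.00913 on 2R (SD, n = 2). In 10 kb bins at a lag of 100 kb it was 0.0135 ± 0.00520 on 2L, and between 0.0765 and 0.0935 on the other arms. By the first lag below 0.1 in these bins, 2L lay among the other arms. That lag was 80 kb in each replicate on 2L, 60 kb on 2R and 100 kb on 3R. In replicates 1 and 2 it was 100 and 120 kb on 3L, and 70 and 90 kb on X. At a lag of 10 kb 2L did not stand apart, with 0.404 ± 0.00627 against 0.362 to 0.435. These values have no test, and the stretches compared are 12.6 Mb on 2L and 18.1 to 24.9 Mb on the other arms. The SDs are over 2 replicates of the same chromosome. They do not measure how far an autocorrelation from a limited number of windows can vary.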

How the data were processed

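Enriched clusters were read from the 3 lists deposited for ChIP replicate 1, ChIP replicate 2 and the series, whose coordinates follow FlyBase release 5 per the file headers. Bowtie 0.12.7 was the aligner, per the submitters' processing notes. The value per cluster is a score that the authors deposited. The sources used here do not give its scale, the cluster caller, the threshold or how the series list was made. The score served to rank, filter and describe clusters within a list. It was also correlated between paired clusters of the 2 replicates, and series and replicate scores were given side by side. Depth is unknown, so no counting interval was computed.

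The region and the lists of results were chosen with earlier results of these data known. Coverage, in percent of bases, was taken in 100 kb windows and 10 kb bins. The autocorrelation at a lag was the sum of products of deviations from the mean over their sum of squares. Clusters overlapped when they shared at least 1 bp. No test was run: there are 2 ChIP replicates and no group to compare them with, windows are not independent, and the high and low windows were chosen by value. Regions were named by a written rule: windows among the 10 highest or lowest in both replicates, the 5 widest and the 5 highest-scoring series clusters touching both replicates, the 5 longest shared cluster-free stretches, and the widest clusters of each replicate without a counterpart (the first 2 of 5 in the text). Interval and autocorrelation functions were tested on simulated data. The tools were Python 3.11.15 with SciPy 1.17.1, NumPy 2.4.6, pandas 2.3.3 and Matplotlib 3.10.9.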

Additional observations from a re-analysis of the deposited data

How the results depend on the processing

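Across 14 values and 82 alternatives, 40 stayed close, 42 moved further and none changed sign. Close meant within the SD of the replicates or within 1.5 times a count. For the Jaccard index and the correlation of the profiles, which have no SD, it meant within a small fixed difference. The 2 alternatives that leave out the high and low windows, and the count of midpoints, were added after the data were seen. Leaving out a replicate moved no value beyond the SD, as it cannot with 2 replicates. Counting all bases of the interior, whatever the midpoint, gave the same 33.9%.
With at least the median score of each list, the interior held 56.1 clusters per Mb over 20.1%. The median width was 2871 bp, the median gap 7974 bp, the Jaccard index 0.511 and the share touching the other replicate 66.7%. The SD over windows was 13.1 percentage points and r between profiles 0.899. The difference from the other arms was -2.81 percentage points, against -1.08 over all clusters. This cut-off was the same for all arms of a list. Median scores in replicates 1 and 2 were 0.755 and 0.715 in the interior of X, and 0.589 and 0.568 in that of 2L. On 2R, 3L and 3R they were 0.562 to 0.594. The part of these scores in the arm difference was not tested. With clusters of at least 2 kb the values were 66.9 per Mb, 24.1%, a gap of 5829 bp, a Jaccard index of 0.594, r of 0.942 and an autocorrelation of 0.275 at 1 window. Joining clusters within 500 bp gave 108.0 per Mb, a width of 2183 bp and a gap of 3469 bp. The series list gave 188.4 per Mb, 55.1%, a gap of 1258 bp, an SD of 15.0, an autocorrelation of 0.156 and an arm difference of -1.61. Under 50% reciprocal overlap 69.1% of clusters were shared.
Windows of 50 kb gave an SD of 17.2 and r of 0.935, windows of 200 kb 11.6 and 0.960. Moved by 50 kb, the windows had an autocorrelation of 0.179. Without the high and low windows r was 0.895 and the autocorrelation at 1900 kb 0.144, and other long lags were not run so. That autocorrelation lost every pair with a left-out window, so fewer pairs per window entered it. It is therefore not on the same footing as the value over all windows. The 10 lowest windows of 50 kb had 4 in common. With 5 windows per end 4 high and 4 low ones were shared, and with 20 per end 16 and 16. The autocorrelation range, 100 kb in 100 kb windows, was 50 kb in 50 kb windows, 20 kb in 10 kb bins and 10 kb for midpoints in 10 kb bins. All but the 20 kb are the first lag of their own bins, so the bin width set them and they do not measure a range. In 100 kb windows the first lag below 0.2 was 200 kb in replicate 1 and 100 kb in replicate 2, 150 kb on average. The first lag at or below 0 was 300 kb in each replicate in these windows. In 10 kb bins the first lag below 0.2 was 40 kb in each replicate. That at or below 0 was 290 kb in replicate 1 and 110 kb in replicate 2, so the replicates differed in it. Apart from the fewer clusters or windows that a setting itself leaves, the cause was not tested. No paired analysis was possible because the inputs have no list of their own here. Unknown depth limits every statement on bases without clusters.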

Other observations

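Of the 31 regions typed as depleted in the series list, 3 (9.68%) lay in the interior of 2L, which held 11.03% of the enriched clusters of that list. They lay at 2L 5960914 to 5962258 (score -0.0865), 7493356 to 7494947 (-0.0674) and 8325609 to 8326956 (-0.0258). The one at 7493356 lay under a replicate 1 cluster for 83.4% of its bases, and the other two under no replicate cluster. The only depleted region of replicate 1, at 11010949 to 11012486 (score -0.00580), lay in the interior and was covered in full by an enriched cluster of the series list.

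The highest series score in the interior, 3.01, belonged to a narrow cluster that neither replicate called: 2L 8723198 to 8724204, 1007 bp long. The same score was given to 5 clusters of the whole series list, from 1001 to 1080 bp long. The region was named after its value was seen. The next highest score in the interior was 2.08.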
